A study of Arabidopsis thaliana and Zea mays with 822 samples.

Results

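Lc gRNA6 is 1 of 11 guide RNAs directed at the maize Lc gene, and the 7 libraries described here are the 6 that received this guide and the 1 control library of the amplicon it lies on, out of 812 libraries with a processed file. They were chosen by the guide named in the sample titles, and this guide was singled out on its share of edited reads, the highest of the 11 with each of the 3 enzymes. The edited shares are therefore given as values and were not tested. Purified nuclease protein and guide RNA were assembled into ribonucleoproteins (RNPs) and delivered with polyethylene glycol into mesophyll protoplasts, which are leaf cells without walls, from dark-grown seedlings of the inbred line B73 at 10 to 12 days. The groups were vCasΦ with Lc gRNA6 (n = 2), nCasΦ with Lc gRNA6 (n = 2), WTCasΦ with Lc gRNA6 (n = 2) and the control (n = 1), which gRNA6 shares with gRNA7 and gRNA8. The labels call it a control and do not say what it received. The labels number the replicates and do not say whether they were separate protoplast preparations, so the p-values below measure only the spread between these libraries, which may be technical. A library is PCR product from a pool of many cells, and its reads are amplified copies of alleles, not cells.

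CasΦ-2 is a compact RNA-guided nuclease from huge bacteriophages. It binds next to a short T-rich motif, the protospacer adjacent motif (PAM), unwinds the DNA beside it and cuts both strands with a single RuvC active site at the end far from the PAM, which leaves staggered ends with 5′ overhangs. Repair of such ends by the cell often removes several bases. WTCasΦ is the wild-type protein, vCasΦ carries a glycine and serine linker in place of the negatively charged tip of helix α7, and nCasΦ carries alanines at residues of that tip. Lc (Leaf color) encodes a basic helix-loop-helix activator of anthocyanin genes and belongs to the R gene family of maize.

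The assay counted, for every library, the reads of each distinct mutation pattern around the target. Deletions are described here by the positions of the 20-base spacer, the stretch of target that the guide pairs with, counted from 1 at the base next to the PAM. Positions from 21 upward lie past the spacer on the side far from the PAM, and positions of 0 and below lie on the PAM side. The bases from position 11 to position 24 were read from the single-base variants named in the deposited pattern labels. They are shown because most deletions fell on them, and each line marks with capitals what its name says, 5′ to 3′ on the strand of the spacer.

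Window, with the spacer bases 11 to 20 in capitals: ACTCAACCAGagct
11 bp deletion of positions 12 to 22, with the deleted bases in capitals: aCTCAACCAGAGct
9 bp deletion of positions 14 to 22, with the deleted bases in capitals: actCAACCAGAGct
10 bp deletion of positions 13 to 22, with the deleted bases in capitals: acTCAACCAGAGct
10 bp deletion of positions 14 to 23, with the deleted bases in capitals: actCAACCAGAGCt
12 bp deletion of positions 11 to 22, with the deleted bases in capitals: ACTCAACCAGAGct
6 bp deletion of positions 17 to 22, with the deleted bases in capitals: actcaaCCAGAGct
4 bp deletion of positions 14 to 17, with the deleted bases in capitals: actCAACcagagct

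The gRNA6 libraries held 53971 to 65199 reads (median 59676) and the control 44699, and the 70 maize libraries of the series ranged from 20925 to 81104 reads. A read was counted as edited when its pattern inserted or deleted 3 bp or more and was seen in 10 or more reads of that library, the criterion that the methods give for maize. Single-base variants, which are not counted as edits, made up 0.419% of reads in vCasΦ replicate 1 and 0.486% in WTCasΦ replicate 1, the lowest and highest of the 6 libraries, against 0.416% in the control.

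With vCasΦ, 1503 of 62018 reads were edited in replicate 1, a share of 2.42% (95% Wilson interval 2.31% to 2.55%), and 1699 of 53971 in replicate 2, a share of 3.15% (3.00% to 3.30%). With nCasΦ, the shares were 2.94% in replicate 1 (1828 of 62147 reads, interval 2.81% to 3.08%) and 6.71% in replicate 2 (3711 of 55344 reads, interval 6.50% to 6.92%). With WTCasΦ they were 0.353% (230 of 65199 reads, interval 0.310% to 0.401%) and 0.326% (187 of 57334 reads, interval 0.283% to 0.376%). The control had 0 edited reads of 44699, which allows a share of up to 0.00671%. The vCasΦ and nCasΦ shares all lay above both WTCasΦ shares, and the vCasΦ and nCasΦ ranges overlapped. These intervals and this limit cover counting error only, because reads copied by PCR and not tagged by molecule are not independent. The distance between replicates was wider than the intervals for vCasΦ and nCasΦ, and the nCasΦ replicates differed 2.28-fold.

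The mean edited share was 2.79% ± 0.512 with vCasΦ, 4.82% ± 2.66 with nCasΦ and 0.339% ± 0.0188 with WTCasΦ (SD, n = 2 each). At a read minimum of 3 in place of 10, the shares were 2.43% and 3.18% with vCasΦ, 2.95% and 6.76% with nCasΦ, and 0.359% and 0.326% with WTCasΦ. Few patterns lay near the minimum. No pattern had between 9 and 21 reads in any library, the highest count below the minimum was 8 reads and the lowest above it was 22. The 59 pairs of a pattern and a library at or above 10 reads held 9158 reads, and the 35 pairs below it held 88 reads.

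Every pattern counted as edited was a single deletion, 40 patterns in all, and none was an insertion. The vCasΦ libraries held 19 and 14 of these patterns, the nCasΦ libraries 6 and 15, and the WTCasΦ libraries 1 and 4. At a read minimum of 3 these numbers were 20 and 18 with vCasΦ, 7 and 19 with nCasΦ, and 2 and 4 with WTCasΦ. The number of patterns did not follow the number of edited reads throughout: vCasΦ replicate 1, with 1503 edited reads, held 19 patterns, and nCasΦ replicate 2, with 3711, held 15.

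Of the 40 patterns, 31 were counted in 1 library only, and these held a mean of 32.7% of a library's edited reads. The 9 bp deletion of positions 14 to 22 was the only pattern counted in all 6 libraries, and the 11 bp deletion of positions 12 to 22 was counted in 4. A further 4 patterns were counted in 3 libraries and 3 patterns in 2. The overlap of 2 libraries, taken as the sum over patterns of the smaller of the 2 shares of edited reads, was 34.8% between the vCasΦ replicates, 42.1% between the nCasΦ replicates and 25.7% between the WTCasΦ replicates. Between libraries of different enzymes it ranged from 1.73% to 64.8% (median 11.1%, 12 pairs that share libraries). The highest of these was between vCasΦ replicate 2 and nCasΦ replicate 2, which shared 6 patterns, 42.9% of the 14 in vCasΦ and 40.0% of the 15 in nCasΦ, more overlap than any replicate pair of 1 enzyme had.

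The 11 bp deletion of positions 12 to 22 had the highest mean share of edited reads with vCasΦ and with nCasΦ. It led in vCasΦ replicate 2 and in both nCasΦ libraries, and in vCasΦ replicate 1 it came after the 10 bp deletions of positions 14 to 23 and 13 to 22 and the 4 bp deletion of positions 14 to 17. It had 119 and 593 reads in the vCasΦ libraries (7.92% and 34.9% of edited reads), 566 and 1273 reads in the nCasΦ libraries (31.0% and 34.3%), and 0 and 0 reads in the WTCasΦ libraries. The mean share of edited reads was 21.4% with vCasΦ and 32.6% with nCasΦ. Set against 3 assumed reads in each WTCasΦ library (1.30% and 1.60% of their edited reads), this share was 14.7-fold higher with vCasΦ. With nCasΦ it was 22.4-fold higher. Without vCasΦ replicate 2 the vCasΦ figure was 5.44-fold, and without vCasΦ replicate 1 it was 24.0-fold. These folds are not lower bounds, because the WTCasΦ edited reads are PCR copies of only 1 and 4 counted patterns. The pattern was also named for its high share in the libraries compared. The WTCasΦ libraries had 230 and 187 edited reads against 1503 or more in each of the others.

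The 9 bp deletion of positions 14 to 22 had 26 and 138 reads with vCasΦ (1.73% and 8.12% of edited reads), 203 and 605 reads with nCasΦ (11.1% and 16.3%), and 230 and 48 reads with WTCasΦ (100% and 25.7%). Its share of edited reads was therefore lowest in the vCasΦ libraries and highest in the WTCasΦ libraries, with no overlap between the 3 enzymes. In WTCasΦ replicate 1 it was the only counted pattern. It had the highest mean share over the 6 libraries, 27.2%, and this place rests on WTCasΦ replicate 1: without that library the 11 bp deletion led with 21.6%, against 12.6% for the 9 bp deletion.

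The difference in the share of the 9 bp deletion was -57.9 percentage points for vCasΦ minus WTCasΦ, -49.1 for nCasΦ minus WTCasΦ and 8.78 for nCasΦ minus vCasΦ. Each gave p = 0.33 in a two-sided exact permutation test over libraries, which is the smallest value that 2 libraries against 2 can give (adjusted p = 0.571 over the 12 such tests of 4 measures and 3 pairs of enzymes). No comparison of this size could pass a threshold of 0.05. The pattern was picked for its mean share over the same 6 libraries, a place that rests on WTCasΦ replicate 1. Its differences from WTCasΦ are therefore drawn from the values that chose it and only describe these libraries.

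Next by mean share with vCasΦ were 10 bp deletions, which in replicate 1 had more reads than the 11 bp deletion. The deletion of positions 13 to 22 had 150 and 298 reads with vCasΦ (9.98% and 17.5% of edited reads), 0 and 399 with nCasΦ, and 0 and 0 with WTCasΦ. The deletion of positions 14 to 23 had 229 and 127 reads with vCasΦ (15.2% and 7.47%), 0 and 307 with nCasΦ, and 0 and 0 with WTCasΦ. Both were thus in each vCasΦ library and in nCasΦ replicate 2, and absent from the counts of the other 3 libraries. The 8 bp deletion of positions 14 to 21, ranked 5 with vCasΦ, had 85 and 58 reads with vCasΦ and 0 in the other 4 libraries.

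The remaining leading patterns were found in single libraries of their enzyme. In nCasΦ, the patterns ranked 3 to 5 by mean share were a 21 bp deletion of positions 14 to 34 (302 and 0 reads), the 6 bp deletion of positions 17 to 22 (261 and 0 reads) and a 13 bp deletion of positions 15 to 27 (256 and 0 reads). All 3 came from nCasΦ replicate 1, where they made up 16.5%, 14.3% and 14.0% of edited reads. In WTCasΦ, the 12 bp deletion of positions 11 to 22 (0 and 71 reads), the 4 bp deletion of positions 14 to 17 (0 and 38 reads) and a 5 bp deletion of positions 16 to 20 (0 and 30 reads) came from replicate 2, with 38.0%, 20.3% and 16.0% of its edited reads. The 4 bp deletion had 131 reads in vCasΦ replicate 1 as well. At a read minimum of 3, the 9 bp deletion of positions 13 to 21 joined the leading patterns of WTCasΦ with 4 reads in replicate 1, a mean share of 0.855%, and it had 76 reads in vCasΦ replicate 1 and 198 in nCasΦ replicate 2.

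The composition of the edited reads was tested pattern by pattern with edgeR's quasi-likelihood test in 1 fit of the 6 libraries. Of 40 patterns tested, 0 passed an adjusted p of 0.05 (0% of patterns) for vCasΦ against WTCasΦ, for nCasΦ against WTCasΦ and for nCasΦ against vCasΦ. At an unadjusted p under 0.05, edgeR gave 2 patterns (5.00%) for vCasΦ against WTCasΦ, 1 (2.50%) for nCasΦ against WTCasΦ and 0 (0%) for nCasΦ against vCasΦ. DESeq2 called 1 pattern for vCasΦ against WTCasΦ, 1 for nCasΦ against WTCasΦ and 0 for nCasΦ against vCasΦ. DESeq2 scaled the libraries with its own size factors, not with their edited reads, so its calls are not of composition alone. The pattern that DESeq2 called was the 11 bp deletion of positions 12 to 22, for which edgeR gave adjusted p = 0.126 for vCasΦ against WTCasΦ and adjusted p = 0.0866 for nCasΦ against WTCasΦ (edgeR, -7:11D in the deposited labels). The fitted spread between libraries was very wide, with a common dispersion of 7.68 (biological coefficient of variation 2.77), so 0 calls do not show that the compositions were alike. Of the edited reads of WTCasΦ the 11 bp deletion held 0 in both libraries, and it was present in 4 of 4 libraries of the other enzymes. It entered the tested patterns only through those libraries, and the WTCasΦ libraries held only 1 and 4 counted patterns. Its calls and its presence are therefore not separate support for a difference. The 9 bp deletion of positions 14 to 22 had an edgeR adjusted p of 0.877 for vCasΦ against WTCasΦ and of 1 for nCasΦ against WTCasΦ (-5:9D in the deposited labels).

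The deletions were short. The mean size over edited reads was 11.2 and 10.1 bp with vCasΦ, 11.6 and 10.7 bp with nCasΦ, and 9.0 and 8.48 bp with WTCasΦ. The means were 10.7 ± 0.762 bp, 11.2 ± 0.626 bp and 8.74 ± 0.367 bp for vCasΦ, nCasΦ and WTCasΦ (SD, n = 2 each). The 2 WTCasΦ values rest on only 1 and 4 counted patterns, the first being the size of a single pattern. The difference was 1.92 bp for vCasΦ minus WTCasΦ and 2.42 bp for nCasΦ minus WTCasΦ, with no overlap between the libraries in either comparison (exact permutation p = 0.33 each, adjusted p = 0.571). It was 0.497 bp for nCasΦ minus vCasΦ, with overlap (exact permutation p = 0.667, adjusted p = 0.889).

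Deletions of 8 to 12 bp held 59.1% and 74.0% of edited reads with vCasΦ, 55.2% and 75% with nCasΦ, and 100% and 63.6% with WTCasΦ. The most common sizes by mean share were 10 bp with vCasΦ (25.1%), 11 bp with nCasΦ (32.6%) and 9 bp with WTCasΦ (62.8%). Deletions over 20 bp made up 9.45% of edited reads in vCasΦ replicate 1, 16.5% in nCasΦ replicate 1 and 5.93% in nCasΦ replicate 2, and none in the other 3 libraries. The longest counted deletion was 30 bp, in nCasΦ replicate 2, and the shortest 3 bp, in the same library.

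As the deposited labels place the deletions, the most common last deleted base was the same in all libraries. The median last position was 22 in each of the 6 libraries, 2 bases past the end of the spacer. Deletions with that labelled end held 22.8% and 70.4% of edited reads with vCasΦ, 56.3% and 64.8% with nCasΦ, and 100% and 63.6% with WTCasΦ. They were the largest class of ends in each of the 6 libraries. Of the 40 patterns, 9 ended at position 22, each with its own first position, and they ranged from 5 to 18 bp. On the mean of the 6 libraries they held 63.0% of edited reads, the 9 bp deletion 27.2% and the 11 bp deletion 18.0%. Both of these could also be placed with a later end, as described below, so the shared end depends on the placement in the labels. The 10 bp deletion of positions 13 to 22, with 6.38%, could not be shifted.

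In the deposited labels, the most common first deleted base was position 14 in vCasΦ replicate 1 and in both WTCasΦ libraries. It was position 12 in vCasΦ replicate 2 and in both nCasΦ libraries. Position 14 was the first deleted base in 43.4% of edited reads on the mean of the 6 libraries, position 12 in 20.7% and position 13 in 10.5%. With vCasΦ, position 12 held 16.5% and 39.0% of edited reads and position 14 held 36.7% and 22.7%. With nCasΦ, position 12 held 31.0% and 37.7% and position 14 held 27.6% and 27.4%. With WTCasΦ, position 12 held 0% in both libraries and position 14 held 100% and 46.0%.

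The mean first position was 13.178 and 12.9 with vCasΦ, 14.3 and 12.2 with nCasΦ, and 14.0 and 13.182 with WTCasΦ. The mean last position was 23.4 and 22.1 with vCasΦ, 24.9 and 21.9 with nCasΦ, and 22.0 and 20.7 with WTCasΦ. The vCasΦ libraries did not overlap the WTCasΦ libraries in either measure, for the first position by a margin in the third decimal, with differences of -0.527 bases for the first position and 1.39 bases for the last, vCasΦ minus WTCasΦ (exact permutation p = 0.33 each, adjusted p = 0.571). The first position difference was -0.822 to -0.233 bases with 1 replicate left out, and with indels from 1 bp it was -0.365 bases and the libraries overlapped (exact permutation p = 0.667). The nCasΦ libraries overlapped the WTCasΦ libraries and the vCasΦ libraries in both measures. The differences were -0.307 and 2.11 bases for nCasΦ minus WTCasΦ, first and last position (exact permutation p = 1 and 0.667), and 0.220 and 0.718 bases for nCasΦ minus vCasΦ (exact permutation p = 1 each). At a read minimum of 3, the mean size was 10.7 bp with vCasΦ, 11.2 bp with nCasΦ and 8.74 bp with WTCasΦ, and the mean first and last positions were 13.1 and 22.7 with vCasΦ, 13.3 and 23.4 with nCasΦ, and 13.6 and 21.3 with WTCasΦ.

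Read base by base with the labelled ends, positions 14 to 22 were removed in most edited reads of every library. Position 17 was removed most often, in 98.5% of edited reads on the mean and in 95.1% in the lowest library. Deletions confined to the spacer held 17.0% and 10.8% of edited reads with vCasΦ, 0% and 10.6% with nCasΦ, and 0% and 36.4% with WTCasΦ, and all other deletions but 1 ran past the spacer end away from the PAM. The exception reached the PAM side, a 30 bp deletion from position -9 to position 20, with 109 reads in nCasΦ replicate 2 (2.94% of its edited reads).

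Short repeats can let a deletion be placed at more than 1 position, so that the same product is written with different ends. In the 14-base window this could be decided for 19 of the 40 patterns, which held a mean of 64.5% of edited reads. For 10 of them (18.9%) the deletion could be shifted neither way, for 1, the 12 bp deletion of positions 11 to 22 (6.33%), it could not be shifted away from the PAM and the other side was undecided, for 7 (34.4%) the deletion could be shifted by 1 base away from the PAM, and for 1, the 4 bp deletion of positions 14 to 17, by 2 bases (4.84%). The 9 bp deletion of positions 14 to 22 is 1 of the 7: its first base and the base after its end, at position 23, are both c. The 11 bp deletion of positions 12 to 22 begins with the same bases, ct, that follow it at positions 23 and 24, so it could be shifted by at least 2 bases, and its limit lies outside the window. The ends given here are those of the deposited labels, and none of the patterns that could be decided on the other side could be shifted toward the PAM.

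Lc gRNA7 lies on the same amplicon and shares the control, and its libraries had a mean edited share of 1.01% with vCasΦ, 0.646% with nCasΦ and 0.0374% with WTCasΦ. Weighted by reads, deletions were longer with gRNA6. Their mean size per library ran from 8.48 to 11.6 bp with gRNA6 (median 10.4 bp, n = 6) and from 7.16 to 10.0 bp with gRNA7 (median 9.40 bp, n = 5, since WTCasΦ replicate 2 had 0 edited reads and was left out). The difference averaged over the enzymes was 1.46 bp (two-sided exact permutation test within enzymes, p = 0.0185, the smallest its 108 arrangements can give). With each enzyme, both gRNA6 libraries lay above the gRNA7 libraries. The margin was narrow with vCasΦ, 10.12 bp against 10.03 bp. With WTCasΦ, the gRNA7 value came from 1 counted pattern of 40 reads. The gRNA7 libraries with edited reads held 1 to 6 counted patterns each, and weighting each pattern once gave 0.878 bp (exact permutation p = 0.139).

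As the deposited labels place them, the ends of gRNA7 deletions were less alike in their own spacer's numbering. Deletions ending at position 22 held 0% and 11.2% of edited reads with vCasΦ and gRNA7, 66.9% and 16.1% with nCasΦ and 100% in the WTCasΦ library with edited reads, and the most common last position was 24, 17, 22, 23 and 22 in the same 5 libraries. The difference between the guides in this measure was not tested.

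Without the gRNA6 guide, deletions at its site were near 0. The control held 2 reads with any indel, both a 1 bp deletion that the 6 gRNA6 libraries also had at 1 to 5 reads. The 6 gRNA8 libraries cover the same bases, and 4 of their 309394 reads held an indel of at least 3 bp, each in a pattern of 1 read. They are not a background without a guide, because the gRNA8 spacer overlaps that of gRNA6 on the other strand. Placed in the numbering of gRNA6, 3 of the 4 were deletions counted with gRNA6: those of positions 12 to 22, 17 to 22 and 15 to 20. These 3 reads are 0.000970% of the gRNA8 reads, against 0.326% edited reads in the lowest gRNA6 library. Whether they arose from gRNA8 was not tested.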

How the data were processed

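Amplicons of the Lc target were sequenced from maize protoplast DNA. The authors trimmed reads with Trim Galore, mapped them with BWA-MEM (BWA 0.7.17) to the target region and exported read counts of each mutation pattern with CrispRVariants, and the deposited values are these counts, 1 table per library. The submitters' processing notes also name GATK 4.2.0.0 and bedtools 2.26.0. PCR without molecular identifiers means that a count can hold many copies of 1 molecule, and a read minimum removes rare patterns.

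Everything after the counts was computed with Python 3.11.15, NumPy 2.4.6, SciPy 1.17.1 and, in R 4.3.3, edgeR 4.0.16 and DESeq2 1.42.0. Library depth is the total of its table. Groups come from sample titles, and no gRNA6 library was left out. Edited reads belong to patterns with an indel of 3 bp or more seen in 10 or more reads of the library. Means per enzyme weight libraries equally. Exact permutation tests were two-sided, with Benjamini-Hochberg adjustment over 12 tests. edgeR was run on the 40 patterns counted in at least 1 library, with the edited reads as library size. No maize genome was used, so no coordinates are given. The patterns named are the leading 5 of each enzyme by mean share of edited reads, those called by edgeR and those counted in the control. Others are named where a count needs it, chosen after their values were seen. The guide, the patterns and the tests were chosen with earlier results of these data known. The alternatives were another read minimum, smallest indel, average, weighting, library size and tool, the replicate number as a block and each replicate left out. The code was tested on simulated data.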

Additional observations from a re-analysis of the deposited data

Results flagged for a closer look

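A deletion of 2 bp, too short to count as edited, was seen in vCasΦ replicate 1 only. The deposited label places it at positions 19 and 20 of the spacer, the last 2. The 2 bases that follow, past the spacer end, are also ag, so the deletion could be placed there as well. It had 89 reads, 0.144% of that library (95% Wilson interval 0.117% to 0.177%), against 0 reads in the control, and 0 in the other 5 gRNA6 libraries. Counting indels from 1 bp moved the mean edited share of vCasΦ to 2.86% ± 0.411 (SD, n = 2), against 2.79% ± 0.512 with the minimum of 3 bp.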

How the results depend on the processing

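Under the other read minimums, smallest indel, control subtraction and target limits, the mean edited shares moved by less than 1 SD. With 1 replicate left out they were 2.42% to 3.15% with vCasΦ, 2.94% to 6.71% with nCasΦ and 0.326% to 0.353% with WTCasΦ, which is the spread of the replicates themselves. With 1 replicate left out, the differences in mean size were 1.64 to 2.20 bp for vCasΦ minus WTCasΦ, 2.24 to 2.60 bp for nCasΦ minus WTCasΦ and 0.401 to 0.594 bp for nCasΦ minus vCasΦ. Direction turned in 3 position measures: the first position of nCasΦ minus WTCasΦ was -0.957 to 0.343 bases with 1 replicate left out, that of nCasΦ minus vCasΦ -0.724 to 1.16 bases, and -0.0333 bases with each pattern weighted once, and the last position of nCasΦ minus vCasΦ -0.130 to 1.57 bases. The difference in the share of the 9 bp deletion was -98.3 to -17.5 percentage points for vCasΦ minus WTCasΦ. For nCasΦ minus WTCasΦ it was -88.9 to -9.37. The pattern was picked on these same shares, so the kept sign is not separate support.

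The gRNA6 minus gRNA7 size difference was 1.55 bp with the replicate block (exact permutation p = 0.0625), 1.46 to 1.96 bp with 1 replicate left out (exact permutation p = 0.25 and 0.5), each with fewer arrangements, and 0.878 bp with each pattern weighted once (p = 0.139, exact permutation), an alternative chosen after seeing the data. Replicate numbers are not said to mark shared batches. With each enzyme, replicate 1 lay above replicate 2 in mean size, first position and last position. The edited share and the share of the 9 bp deletion were not ordered alike across the enzymes. A shared batch was not tested. With the replicate numbers as a block, the 12 tests between enzymes gave exact permutation p-values from 0.5, the smallest that 2 pairs allow, to 1, and edgeR called 0 patterns.

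The 11 bp deletion of positions 12 to 22 was the 1 pattern called for vCasΦ and for nCasΦ against WTCasΦ with TMM factors and with DESeq2. Both rescale the libraries by factors drawn from the pattern counts, and the WTCasΦ libraries held only 1 and 4 counted patterns. The calls are not separate support, because the deletion entered the test through the vCasΦ and nCasΦ libraries. The 11 bp deletion was also the 1 pattern called with all reads as library size. That setting compares shares of all reads, so it carries the edited share that chose the guide and is not a test of composition. Leaving out a library gave 0 to 2 calls in both comparisons: without vCasΦ replicate 1 and without vCasΦ replicate 2, the 11 bp and the 9 bp deletions were called, with the lone vCasΦ library assumed to vary like the other groups. nCasΦ against vCasΦ had 0 calls in every setting. The cause was not tested. The minimum of 10 reads is 4.35% of the edited reads of WTCasΦ replicate 1 and 5.35% of those of replicate 2. Patterns of 3 bp or more below it held only 4 reads in replicate 1 and 2 reads in replicate 2. The 11 bp deletion was not among them.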
